A study of Mus musculus with 6 samples.

Results

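The genes described here encode the proteins of the cytosolic ribosome and the factors that start translation on it. They were taken by gene symbol from the array's annotation (Rpl or Rps with a number, Rplp0 to Rplp2, and Eif1 to Eif6, without the eIF2 kinases Eif2ak1 to Eif2ak4). Of 120 such symbols, 88 had a probe set annotated to 1 gene alone, out of 18193 genes measured this way. The ribosomal protein genes account for 45 of these (24 of the large and 21 of the small subunit), of 74 symbols, since 29 lie only on probe sets shared by several genes. The initiation factor genes account for 43 of 46 symbols. The members without a probe set of their own include Rpl3, Rplp1, Rpl36a, Rpl36al and Eif4ebp3. Each gene was represented by its brightest single-gene probe set.

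RNA from cultured bone marrow cells of C57BL/6 mice was hybridised to 6 Affymetrix arrays, 2 for each of 3 groups. GM-MPP were multipotent progenitors grown with stem cell cytokines together with GM-CSF, a myeloid growth factor. GM-DC were dendritic cells obtained with GM-CSF, and GM-TNFa-DC were dendritic cells obtained with GM-CSF and the inflammatory cytokine TNFa, so GM-CSF is common to the 3 groups. The arrays of a group are numbered 1 and 2, and neither the meaning of the number nor separate cultures or animals are given in the labels, so the p-values measure only the spread among these arrays, which may be technical.

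Each ribosome joins a small and a large subunit, and the ribosomal proteins are made in matched amounts. Translation starts when eIF4E binds the mRNA cap, eIF4A unwinds the leader, eIF3 and eIF1A hold the small subunit, eIF2 brings the initiator tRNA, and eIF2B recharges eIF2 with GTP. Dividing progenitors are known for high ribosome production, and messages of ribosomal proteins and of several translation factors begin with a run of pyrimidines, the terminal oligopyrimidine tract, through which the mTORC1 kinase controls their translation.

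That shared sequence feature was visible at the annotated transcription starts. In the RefSeq promoter table (GRCm38.p6), which held 73 of the 88 genes (Eif2b3 and Eif1a are not among them), an unbroken run of at least 8 C or T on the transcribed strand was looked for from 10 bases before to 30 bases from the start. The run was present in 19 of 39 ribosomal protein genes (48.7%) and in 9 of 34 initiation factor genes (26.5%), against 4440 of all 27025 genes (16.4%). On the other strand it was present in 3 (7.69%), 6 (17.6%) and 5496 (20.3%) of the same genes. The search was chosen after the array values were known, and a run is a match of letters, not a measured control element. The 6 sequences below span 20 bases on either side of the start, 5′ to 3′ on the transcribed strand, with runs of at least 8 C or T in capitals. The first 4 carry a run: Rps6 (chr4:86857348-86857387, minus strand), Rpl35 (chr2:39005112-39005151, minus), Rps18 (chr17:33955646-33955685, minus) and the eIF3 subunit gene Eif3f (chr7:108934395-108934434, plus). Eif2b4 (chr5:31193120-31193159, minus) and Eif4a2 (chr16:23107448-23107487, plus) do not, and are shown because Eif2b4 is 1 of the called initiation factor genes and Eif4a2 the one with the largest increase, which was not called.
Rps6: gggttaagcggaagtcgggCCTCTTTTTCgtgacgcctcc
Rpl35: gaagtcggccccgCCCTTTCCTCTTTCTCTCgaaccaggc
Rps18: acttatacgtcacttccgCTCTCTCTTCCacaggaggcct
Eif3f: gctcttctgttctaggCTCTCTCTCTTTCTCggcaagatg
Eif2b4: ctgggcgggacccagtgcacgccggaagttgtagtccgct
Eif4a2: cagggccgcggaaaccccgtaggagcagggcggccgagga

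Values are deposited expression levels on the log2 scale, where 1 unit is a 2-fold difference. Array medians lay between 4.67 and 4.77 and the highest values between 14.0 and 14.4. Of the 45 ribosomal protein genes, 29 were above 12 on all 6 arrays and 3 had a mean under 5. Of the 43 initiation factor genes, none was above 12 on all arrays and 2 had a mean under 5. Levels near the top of the scale or near the array median can understate a difference. Ribosomal proteins also have many near-identical processed copies in the genome, so a probe set may collect signal from such copies and its value is uncertain in that respect. The labelled cell types were compared with lists of marker genes. The mean level of 8 dendritic cell markers was 5.76 and 5.93 in GM-MPP and between 9.44 and 11.33 in the dendritic cells. That of 5 neutrophil precursor markers was 12.30 and 12.65 in GM-MPP and between 4.85 and 5.90 in the dendritic cells. That of 5 progenitor markers was 8.41 and 8.91 in GM-MPP and between 4.94 and 5.55 in the dendritic cells. Kit, 1 of these 5, was at 7.09 and 7.22 in GM-MPP, 8.997 and 5.65 in GM-DC, and 8.66 and 5.43 in GM-TNFa-DC. Its number 1 dendritic cell arrays were above both GM-MPP arrays. Flt3, on the progenitor and dendritic cell lists, was at 7.88 and 8.92 in GM-MPP and between 6.42 and 6.66 in the dendritic cells. How far GM-MPP were multipotent was not tested. In bulk RNA, fewer cells of a type and less RNA per cell cannot be told apart.

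The ribosomal protein genes were compared first between GM-DC and GM-MPP. None was called in either direction at an adjusted p under 0.05 (limma with Benjamini-Hochberg adjustment over all 18193 genes, lowest adjusted p = 0.161), where 1.87% of all genes were called higher and 2.63% lower in GM-DC. At an unadjusted p under 0.05, reached by 21.6% of all genes, 1 was higher and 3 were lower. In 39 of 45 the GM-DC mean was below the GM-MPP mean (86.7%, against 46.9% of all genes). In 29 of 45 both GM-DC arrays were below both GM-MPP arrays, against 27% of all genes. Their median log2 difference was -0.27, against 0.02 over all genes. It was -0.09 between the arrays numbered 1 and -0.42 between those numbered 2, and without GM-DC array 2 it was -0.10.

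The lower levels were found in both subunits. The median was -0.28 for the 24 large-subunit and -0.23 for the 21 small-subunit genes. Rplp0, which encodes a protein of the ribosomal stalk, was at 13.47 and 13.61 in GM-MPP, 13.34 and 13.18 in GM-DC, and 13.37 and 13.16 in GM-TNFa-DC. All 4 dendritic cell arrays were below both GM-MPP arrays, by a small margin (GM-DC minus GM-MPP -0.28 ± 0.15, SE, adjusted p = 0.344). Rps6, the small-subunit protein phosphorylated by S6 kinase, was at 8.42 and 8.68, 8.25 and 7.73, and 8.68 and 7.79 in the same order. Its low arrays were the 2 numbered 2 in the dendritic cells, and GM-TNFa-DC array 1 was as high as the higher GM-MPP array.

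The widest differences among ribosomal protein genes were on dimmer probe sets. A dim probe set can differ from the brightest one of the same gene. In GM-DC the brightest and dimmest probe sets differed from GM-MPP by -0.39 and -1.23 for Rps9, and by -0.51 and 0.20 for Rps3. Rpl14, Rps4l and Rpl12 have 1 single-gene probe set each, so their values are uncertain in that respect. Rpl14, a large-subunit protein, was at 7.82 and 7.26 in GM-MPP, 6.70 and 6.04 in GM-DC, and 6.96 and 6.20 in GM-TNFa-DC, with no overlap between progenitors and dendritic cells. The GM-DC difference was -1.17 ± 0.38 (SE, adjusted p = 0.161), which did not pass the test. Rps4l, annotated in RefSeq as a transcribed pseudogene, differed by -1.07 ± 0.42 (adjusted p = 0.222) and Rpl12 by -0.97 ± 0.39 (adjusted p = 0.233). In the opposite direction stood Rpl27a, a large-subunit protein, at 7.07 and 7.21 in GM-MPP, 7.86 and 7.64 in GM-DC, and 7.64 and 7.40 in GM-TNFa-DC. It was the 1 ribosomal protein gene with both GM-DC arrays above both GM-MPP arrays (0.61 ± 0.21, adjusted p = 0.175), a position held by 28.3% of all genes.

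**Figure D1:**
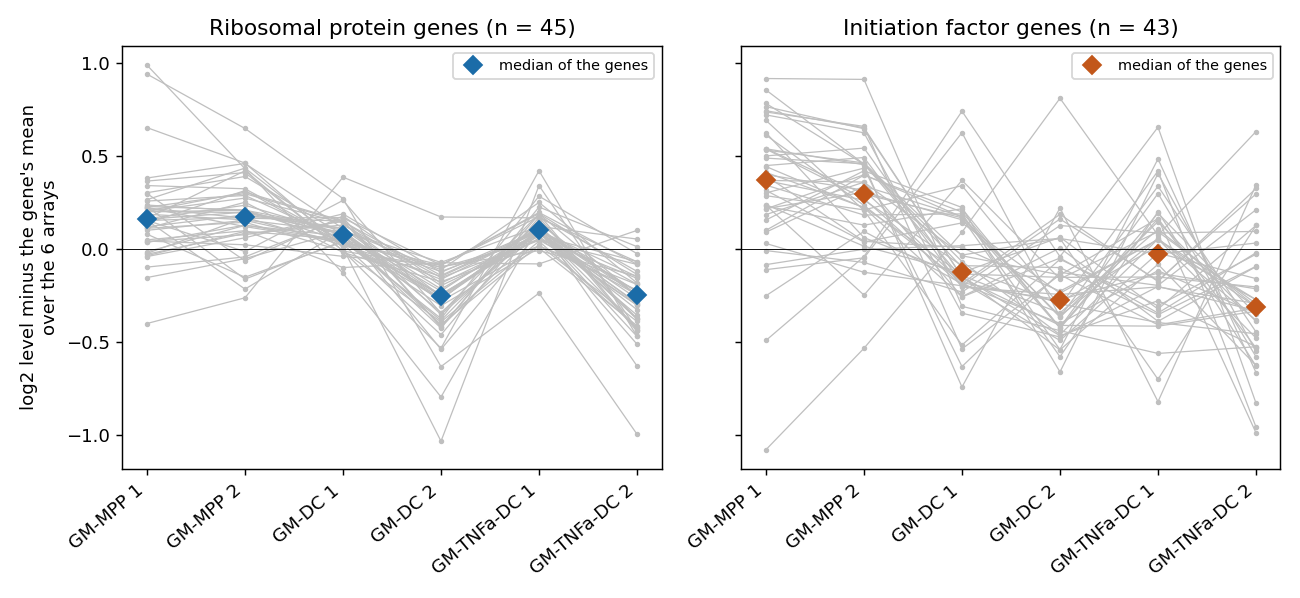
Each grey line is 1 gene, plotted as its log2 level minus its own mean over the 6 arrays; the arrays are on the x axis and diamonds mark the median of the 45 ribosomal protein genes (left) and the 43 initiation factor genes (right). The ribosomal medians are 0.16 and 0.17 in GM-MPP, 0.08 and -0.25 in GM-DC, and 0.10 and -0.25 in GM-TNFa-DC, while the initiation factor medians are highest in GM-MPP at 0.37 and 0.30.

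The initiation factor genes stood lower in GM-DC as well, with a median difference of -0.49 (-0.46 on number 1 and -0.55 on number 2). In 36 of 43 genes the GM-DC mean was the lower (83.7%, against 46.9% of all genes). In 27 of 43 both GM-DC arrays were below both GM-MPP arrays, against 27% of all genes. Of the 43, 2 fell and none rose at an adjusted p under 0.05, against 2.63% and 1.87% of all genes, a background that 2 of 43 does not set apart. At an unadjusted p under 0.05, reached by 21.6% of all genes, 17 were lower and 1 was higher.

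The called genes both encode subunits of eIF2B, the guanine nucleotide exchange factor of eIF2. Eif2b3, the gamma subunit, was at 8.29 and 8.29 in GM-MPP, 7.07 and 6.94 in GM-DC, and 6.82 and 6.85 in GM-TNFa-DC. The dendritic cell arrays lay together, more than 1 log2 unit below the progenitors, and Eif2b3 fell by 1.29 ± 0.19 in GM-DC (2.44-fold, adjusted p = 0.0267). Eif2b4, the delta subunit, was at 8.59 and 8.50, 7.53 and 7.40, and 7.67 and 7.54 in the same order, and fell by 1.08 ± 0.19 in GM-DC (2.12-fold, adjusted p = 0.0437). Between arrays of the same number the differences were -1.22 and -1.35 for Eif2b3 and -1.07 and -1.10 for Eif2b4. The calls depended on single arrays: Eif2b3 lost its call when any GM-MPP or GM-DC array was left out (adjusted p from 0.122 to 0.169) and kept it without either GM-TNFa-DC array, and Eif2b4 when any of the 6 was left out (0.0679 to 0.248).

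Of the other eIF2B subunits, Eif2b1 (alpha) was at 8.87 and 8.54 in GM-MPP, 7.99 and 7.79 in GM-DC, and 7.69 and 7.63 in GM-TNFa-DC. Eif2b5 (epsilon, the catalytic subunit) was at 8.39 and 8.01, 7.59 and 7.28, and 7.75 and 7.61. In both, all dendritic cell arrays were below both progenitor arrays, and neither passed the test (GM-DC difference -0.82, adjusted p = 0.106, and -0.76, adjusted p = 0.147). Eif2b2 (beta) was at 9.21 and 9.06, 8.99 and 9.35, and 9.02 and 9.48. Its groups overlapped and its difference was 0.03 ± 0.26, so 4 of the 5 exchange factor genes had a lower mean in GM-DC and 1 did not. The substrate, eIF2, was represented by Eif2s2 (-0.59 ± 0.18, adjusted p = 0.136), Eif2s3x (-0.33 ± 0.24, adjusted p = 0.496) and its Y-linked copy Eif2s3y, which stayed between 9.02 and 9.17 on all 6 arrays.

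The factors that recognise the cap and unwind the leader did not share 1 pattern. Eif4a2, an RNA helicase, was at 9.43 and 9.98 in GM-MPP, 10.60 and 11.32 in GM-DC, and 10.59 and 11.14 in GM-TNFa-DC. All dendritic cell arrays were above both progenitor arrays (GM-DC difference 1.26 ± 0.36, adjusted p = 0.120). The differences were 1.17 and 1.34 within the array numbers, and a limma fit with the number as a block gave an adjusted p of 0.0215. Such a block gives all groups the same number difference. Deviations of same-numbered GM-MPP and GM-DC arrays correlated at only 0.105, so block results are a check and not calls. Eif4a1, the paralog of Eif4a2, was at 11.85 and 11.74, 11.39 and 11.38, and 11.13 and 11.39, lower in all dendritic cell arrays (-0.41 ± 0.17, adjusted p = 0.248). Eif4e, the cap-binding protein, was at 10.33 and 10.25, 9.05 and 10.01, and 8.97 and 10.14. The progenitors were the highest, and the dendritic cells were split by array number, with differences from GM-MPP of -1.28 on number 1 and -0.23 on number 2. Eif4g2, Eif4h and Eif4b, which scaffold or assist the helicase, differed by -0.46, -0.64 and -0.43, with adjusted p of 0.178, 0.112 and 0.502.

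The eIF4E-binding proteins, which block cap-dependent initiation when unphosphorylated, diverged. Eif4ebp2 was at 9.50 and 9.41 in GM-MPP, 8.61 and 8.22 in GM-DC, and 8.68 and 8.13 in GM-TNFa-DC, without overlap between progenitors and dendritic cells (-1.04 ± 0.27, adjusted p = 0.101, and 0.0478 with the block). Eif4ebp1 was at 9.83 and 10.18, 9.90 and 10.27, and 9.91 and 10.41. Its groups overlapped throughout, and its highest arrays in each group were those numbered 2 (0.08 ± 0.27, adjusted p = 0.902).

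**Figure D2:**
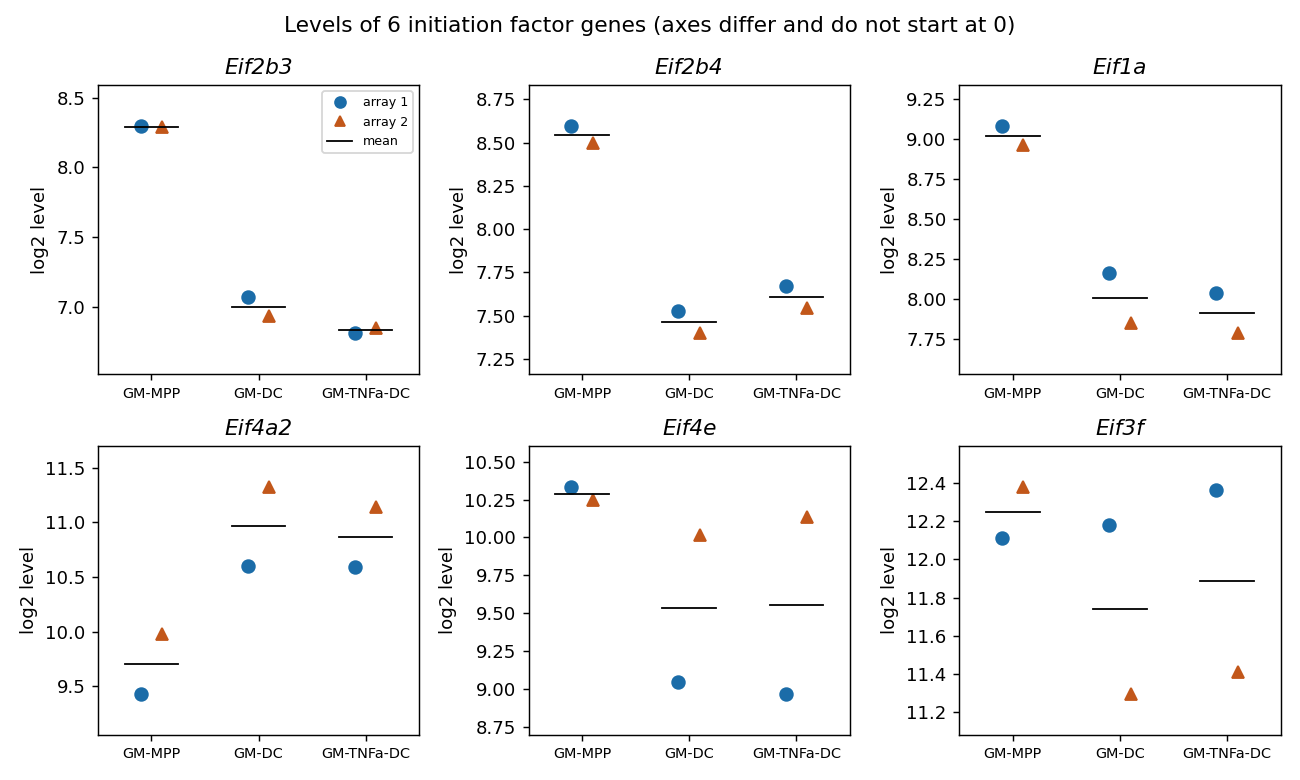
Log2 level of 6 initiation factor genes on each array (circles, array 1; triangles, array 2; lines, group mean), with an axis of its own for each gene. Eif2b3, Eif2b4 and Eif1a are lower in all 4 dendritic cell arrays, Eif4a2 is higher, and Eif4e and Eif3f separate the array numbers within the dendritic cells.

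Among the factors of the scanning complex and subunit joining, Eif1a was at 9.08 and 8.96 in GM-MPP, 8.17 and 7.85 in GM-DC, and 8.04 and 7.79 in GM-TNFa-DC, a GM-DC difference of -1.01 ± 0.22 that did not pass the test (adjusted p = 0.0698, and 0.0399 with the block). Eif5, the GTPase-activating protein of eIF2, differed by -0.58 ± 0.38 (adjusted p = 0.443) and Eif6, which keeps the large subunit from joining early, by -0.75 ± 0.27 (adjusted p = 0.187). Eif5a, placed with these factors by its name alone, was at 12.76 and 12.54, 12.06 and 12.27, and 11.97 and 12.29 (-0.49 ± 0.19, adjusted p = 0.220). All 11 measured subunits of eIF3, the scaffold of the small-subunit complex, had a lower mean in GM-DC, with a median of -0.44. That median was -0.06 on number 1 and -0.82 on number 2. Eif3b and Eif3d were low on both dendritic cell numbers (-0.94 ± 0.23, adjusted p = 0.0880, and -0.81 ± 0.19, adjusted p = 0.0812).

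**Figure D3:**
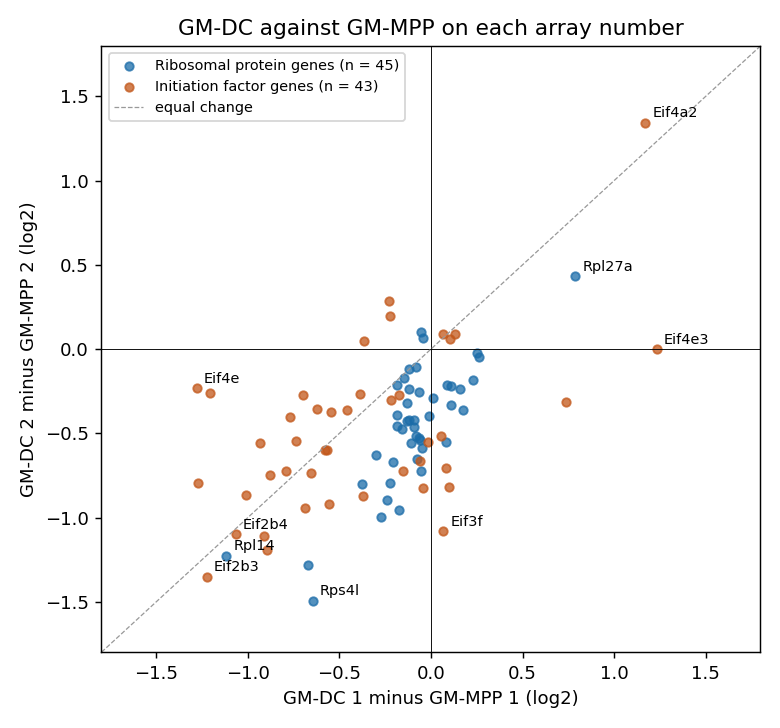
Log2 difference GM-DC minus GM-MPP between the arrays numbered 1 (x axis) and between those numbered 2 (y axis), 1 point a gene, with the dashed line marking equal differences. Most ribosomal protein genes (blue) lie near 0 on number 1 and below 0 on number 2, at medians of -0.09 and -0.42, while the initiation factor genes (orange) have medians of -0.46 and -0.55, with some, such as Eif3f and Eif4e, far from the line.

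Adding TNFa was compared next, as GM-TNFa-DC against GM-DC. No gene was called among all 18193 (0% higher and 0% lower), and none of the 88 members had an unadjusted p under 0.05, against 2.25% of all genes. Every ribosomal protein gene and every initiation factor gene differed by less than 0.5 log2 units, with medians of -0.0004 and -0.025. Both GM-TNFa-DC arrays were above both GM-DC arrays in 0 ribosomal protein and 2 initiation factor genes, against 14.9% of all genes, and below them in 1 and 2, against 10.6%. Genes split by array number within both groups can hardly separate in this way, so these counts do not measure the response to TNFa. Compared within each array number, 14 and 11 were higher on both numbers (31.1% and 25.6%, against 30.9% of all genes). On both numbers 10 and 14 were lower (22.2% and 32.6%, against 26.3%). The ribosomal protein genes ranged from -0.44 ± 0.39 (Rpl12) to 0.47 ± 0.42 (Rps4l) and the initiation factor genes from -0.44 ± 0.55 (Eif4e3) to 0.39 ± 0.27 (Eif6). In simulated arrays with the spreads of these data, 26% of genes changed 2-fold and 87% of genes changed 4-fold were called in this comparison. In that setting most 2-fold differences were missed. The simulated arrays deviated independently, while deviations of same-numbered GM-DC and GM-TNFa-DC arrays correlated at 0.806, so the shares for the real arrays may differ. The spread of this comparison includes the differences between array numbers, and with the number as a block it still called 0 genes.

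GM-TNFa-DC against GM-MPP shares its progenitor arrays with the GM-DC comparison, so the values are given side by side and are no independent support for each other. None of the ribosomal protein genes was called (lowest adjusted p = 0.0975, Rpl12), against 2.77% of all genes higher and 4.26% lower, and at an unadjusted p under 0.05, reached by 25.1% of all genes, 4 were lower and none was higher. In 26 of 45 both GM-TNFa-DC arrays were below both GM-MPP arrays, against 26.1% of all genes, and in 2 they were above, against 31.6%. Their median was -0.26, with -0.08 on number 1 and -0.43 on number 2. Rpl12, a large-subunit protein, was at 6.64 and 6.35 in GM-MPP, 5.97 and 5.07 in GM-DC, and 5.47 and 4.71 in GM-TNFa-DC. Its 4 dendritic cell arrays were below both progenitor arrays, and a fit with the number as a block gave an adjusted p of 0.0237 in GM-TNFa-DC. Rpl14 also passed with the block, at 0.0279 in GM-DC and 0.0352 in GM-TNFa-DC. These block results are no calls, since same-numbered GM-MPP and GM-TNFa-DC arrays hardly deviated together (correlation 0.0719).

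Of the initiation factor genes, 3 fell in GM-TNFa-DC and none rose, against 4.26% and 2.77% of all genes, a background that 3 of 43 does not set apart. The median over all 43 was -0.49. Eif2b3 fell by 1.46 ± 0.19 (2.75-fold, adjusted p = 0.0173), Eif2b4 by 0.94 ± 0.19 (adjusted p = 0.0493) and Eif1a by 1.11 ± 0.22 (adjusted p = 0.0467). Eif2b1 differed by -1.04 ± 0.22 and lay just outside the threshold (adjusted p = 0.0503). Without 1 array, Eif2b3 kept its call only where a GM-DC array was the one left out, and Eif2b4 and Eif1a lost theirs in all 6 cases. With the block, 7 were lower and 1, Eif4a2, was higher. The block also raised the counts over all genes in both directions, so the shares above are no background for it. The second probe set of Eif1a was lower in the same arrays by less, -0.50 in GM-DC and -0.67 in GM-TNFa-DC, and Eif2b3, Eif2b4 and Eif4a2 have 1 single-gene probe set each.

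The array number divided the members within the dendritic cells. Arrays numbered 2 were compared with those numbered 1 over GM-DC and GM-TNFa-DC (4 arrays, 1 residual degree of freedom). If arrays of 1 number share a culture or a day, this sets 1 source against 1 and its p-values are too small. Of 45 ribosomal protein genes, 44 were lower on number 2 in GM-DC and 44 in GM-TNFa-DC, the exception being the dim Rps16. Both number 2 arrays were below both number 1 arrays in 43 (25.6% of all genes) and above them in 1 (29.8% of all genes). Their median was -0.35, a 1.28-fold difference, with -0.35 in GM-DC and -0.37 in GM-TNFa-DC. At an adjusted p under 0.05, 8 were lower and none was higher, against 5.41% and 6.41% of all genes: Rpl10a, Rpl12, Rpl14, Rps4l, Rps7, Rps9, Rps15 and Rps19.

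Rpl10a, a large-subunit protein, was at 12.82 and 12.90 in GM-MPP, 12.55 and 11.90 in GM-DC, and 12.54 and 11.93 in GM-TNFa-DC. The number 2 arrays of both dendritic cell groups were the lowest of the 6 (-0.63 ± 0.10, adjusted p = 0.0238), and the progenitors did not show the split. In GM-MPP the median of number 2 minus number 1 was 0.05, with 16 ribosomal protein genes lower and 29 higher on number 2. When the number difference in the dendritic cells was tested against that in GM-MPP, no ribosomal protein gene was called (lowest adjusted p = 0.108), against 0.923% of all genes lower and 1.61% higher. At an unadjusted p under 0.05, 16 were lower and none was higher, against 8.01% and 10.3% of all genes. Of the 45, 41 were below 0 (91.1%, against 48.9% of all genes), with a median of -0.36.

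The eIF3 genes were lower on number 2 too, while other initiation factors went both ways. All 11 eIF3 genes had a lower mean on number 2 (45.9% of all genes), with a median of -0.59. Of the 11, 7 were called lower, against 5.41% of all genes: Eif3a, Eif3c, Eif3e, Eif3f, Eif3h, Eif3i and Eif3m. Eif3f, a core subunit, was at 12.11 and 12.38 in GM-MPP, 12.18 and 11.30 in GM-DC, and 12.36 and 11.41 in GM-TNFa-DC. The number 2 dendritic cell arrays stood about 1 log2 unit under the other 4, which lay together (-0.92 ± 0.11, adjusted p = 0.0103). Eif3f was also the 1 initiation factor gene called against the number difference in GM-MPP (-1.18 ± 0.17, adjusted p = 0.0435). In that fit 0.923% of all genes were called lower and 1.61% higher. Eif3a, the largest subunit, was at 11.40 and 10.75 in GM-DC and 11.48 and 10.10 in GM-TNFa-DC (-1.01 ± 0.20, adjusted p = 0.0393), and all 4 of its probe sets were lower on number 2. In GM-MPP it was at 11.34 and 11.27.

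Outside eIF3, 3 initiation factor genes were called lower on number 2 and 2 were called higher. Eif4b, which stimulates the helicase, was lower (-0.65 ± 0.12, adjusted p = 0.0318), as were Eif4e3, a cap-binding relative of eIF4E (-1.13 ± 0.21, adjusted p = 0.0328), and the dim Eif5a2 (-0.89 ± 0.15, adjusted p = 0.0255). Eif4e was higher on number 2 by 1.06 ± 0.13 (adjusted p = 0.0126) and none of its 4 probe sets was lower. Eif4a2 was higher by 0.64 ± 0.12 (adjusted p = 0.0334), and in GM-MPP it was higher on number 2 by 0.54. Over the 43 initiation factor genes, 10 were called lower and 2 higher, against 5.41% and 6.41% of all genes, and the median was -0.20. None of the 5 exchange factor genes was called. They ranged from -0.22 (Eif2b5) to 0.41 (Eif2b2, whose 3 probe sets were all higher on number 2), with a median of -0.13.

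**Figure D4:**
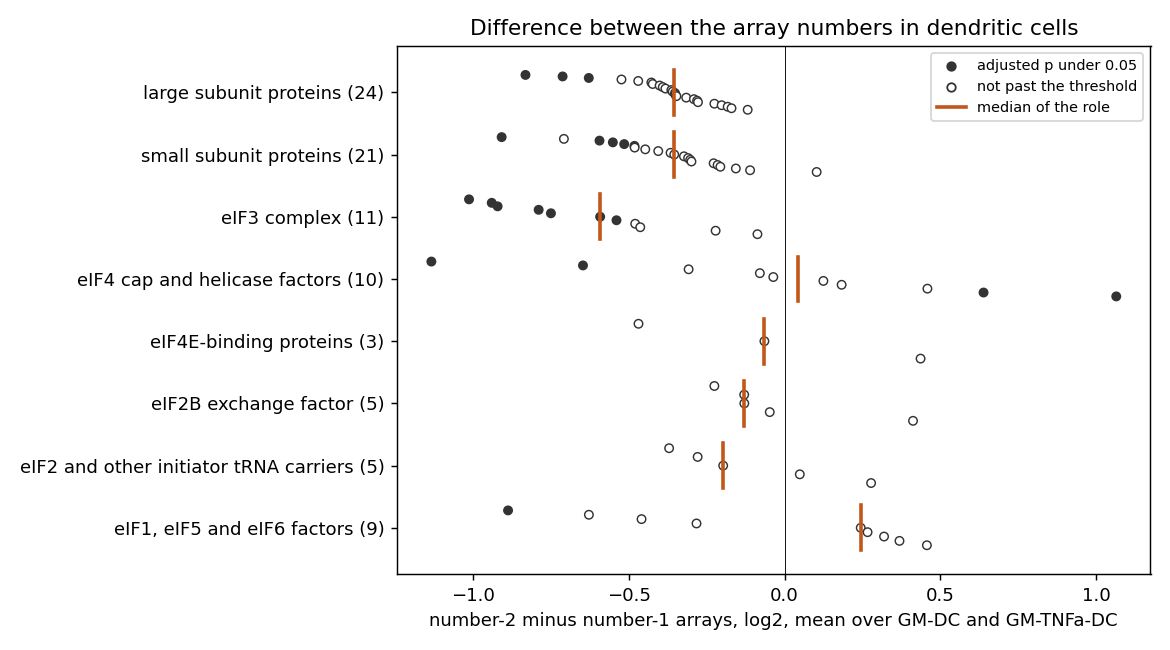
Log2 difference of number 2 minus number 1 arrays, averaged over GM-DC and GM-TNFa-DC, for each member by role (number of genes in brackets); filled points passed an adjusted p under 0.05 and bars are medians. Both ribosomal subunits lie at a median of -0.35 or -0.36 and eIF3 at -0.59, and the other initiation factor roles lie on both sides of 0.

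A pyrimidine run of at least 8 letters at the start did not separate the ribosomal protein genes in this respect. The 20 without one include genes with a run of 7, such as Rplp0 and Rps19. Whether the split sorts genes by presence of the tract was not tested. The median number difference was -0.35 for the 19 with a run and -0.36 for the 20 without. For the initiation factor genes it was -0.22 for the 9 with a run and -0.13 for the 25 without. These medians are descriptions with no test.

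Other measurements moved with the array number or with the groups, and their part in these results was not tested. In the dendritic cells all 10 measured cell division genes of 11 listed were called higher on number 2 (6.41% of all genes), for example Top2a by 2.15 ± 0.14. The mean level of these genes was 10.88 and 10.46 in GM-MPP, 8.10 and 9.43 in GM-DC, and 7.68 and 8.94 in GM-TNFa-DC. Of 8 dendritic cell markers, 7 were called lower on number 2 (5.41% of all genes). The list means were 11.01 and 9.44 in GM-DC and 11.33 and 9.75 in GM-TNFa-DC. The 24 poly-A control probe sets, which measure RNA added during labelling, were brighter on number 1 in every group, with median folds of 2.43 in GM-MPP, 2.13 in GM-DC and 2.58 in GM-TNFa-DC. Between the groups, all 5 macrophage markers had both GM-DC arrays above both GM-MPP arrays (28.3% of all genes), and 2 were called higher (1.87% of all genes). The list means were 8.34 and 9.09 in GM-MPP, 10.84 and 10.63 in GM-DC, and 10.49 and 10.62 in GM-TNFa-DC. Of 5 mast cell and basophil markers, 2 were called lower in GM-DC and 4 in GM-TNFa-DC, against 2.63% and 4.26% of all genes. The list means were 7.38 and 7.56 in GM-MPP and between 5.22 and 5.76 in the dendritic cells. The means of the B cell, T cell and erythroid lists were between 3.74 and 4.97 on all arrays.

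The rest of the translation machinery was followed through lists of named genes. Among all genes, 2.63% were called lower in GM-DC than in GM-MPP, 4.26% lower in GM-TNFa-DC, and 5.41% lower on number 2. Of 7 measured genes of the elongation list, all had a lower mean in GM-DC (median -0.70), 4 of them on both array numbers. Eef1a1 hardly differed, at 13.61 and 13.73 in GM-MPP and 13.67 and 13.61 in GM-DC. The 1 gene that fell was Eef2k, the kinase that inhibits elongation factor 2 and no elongation factor itself. Eef2k was at 7.91 and 8.14 in GM-MPP, 6.28 and 6.38 in GM-DC, and 6.25 and 6.12 in GM-TNFa-DC. The dendritic cell arrays lay together well below the progenitors on both numbers (GM-DC -1.69 ± 0.19, adjusted p = 0.0161; GM-TNFa-DC -1.84, adjusted p = 0.0111). In GM-TNFa-DC Eef1e1 also fell, by 1.12 (adjusted p = 0.0364). Eef2, which moves the ribosome along the message, was at 12.07 and 12.15 in GM-MPP, 12.15 and 11.31 in GM-DC, and 12.45 and 11.30 in GM-TNFa-DC. It was called lower on number 2 (adjusted p = 0.0133), as was Eef1b2 (-0.72 ± 0.10, adjusted p = 0.0178).

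Of 6 termination and recycling genes, 1 fell in GM-DC, against 2.63% of all genes. It was Abce1, which splits ribosomes after termination (-1.23 ± 0.22, adjusted p = 0.0416). In GM-TNFa-DC 2 fell, against 4.26% of all genes: Abce1 (-1.53, adjusted p = 0.0217) and Gspt2 (-1.42, adjusted p = 0.0450). Among 8 genes of the Myc network, which regulates ribosome production, 2 fell in GM-DC and in GM-TNFa-DC, against 2.63% and 4.26% of all genes. Myc itself was at 9.54 and 9.37 in GM-MPP, 7.62 and 6.85 in GM-DC, and 6.61 and 6.32 in GM-TNFa-DC, well separated from the progenitors on all dendritic cell arrays (-2.22 ± 0.31, adjusted p = 0.0247, and -2.99, adjusted p = 0.0105). Mxd1, which opposes Myc, fell by 1.65 in GM-DC (adjusted p = 0.0267) and by 1.37 in GM-TNFa-DC (adjusted p = 0.0336). None of the 6 eIF2 kinase and phosphatase genes, the 10 cap, poly(A) and pyrimidine-tract mRNA binding genes, the 13 measured mTORC1 genes or the 4 measured ribosomal proteins outside the name pattern was called in either comparison with GM-MPP (limma, Benjamini-Hochberg). Their medians in GM-DC were 0.07, -0.33, -0.08 and -0.70. At an unadjusted p under 0.05 GM-DC held 2, 3, 1 and 1 of them and GM-TNFa-DC 3, 1, 2 and 2. Of all genes, 21.6% in GM-DC and 25.1% in GM-TNFa-DC reached that threshold.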

How the data were processed

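Expression was measured on 6 arrays of 45101 probe sets. The deposited values were made with RMA, per the submitters' processing notes, and are on a log2 scale judged by their range; version and build: not given in the sources used here. RMA normalizes between arrays, so differences in total RNA are not retained. Of the probe sets, 34945 carry 1 gene symbol and 932 several. Differences were fitted with limma 3.58.1 in R 4.3.3 (lmFit, eBayes with an intensity trend, 3 groups, 3 residual degrees of freedom) over 18193 genes, with Benjamini-Hochberg adjustment and a threshold of 0.05. The array number was fitted on the 4 dendritic cell arrays with group as a term. Errors after ± are moderated standard errors. The fits were tested on simulated data with 100 genes changed 2-fold and 100 changed 4-fold. For GM-DC against GM-MPP, 22% and 84% were called. Named genes were the called members, the largest differences and a panel fixed by name. Members, lists and tests were chosen with earlier results of these data known. Alternatives were normalization, dim genes, probe set choice, prior, arrays fitted, single arrays left out, a 2-fold minimum and the array number as a block; the number difference against GM-MPP and within each dendritic cell group were chosen after seeing the data. The 2 arrays a group limit the precision. Python 3.11.15 and matplotlib 3.10.9 drew the figures.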

Additional observations from a re-analysis of the deposited data

Results flagged for a closer look

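The ribosomal protein genes were split by array number in the dendritic cells and hardly in the progenitors. Their median of number 2 minus number 1 was 0.046 in GM-MPP (29 of 45 genes higher on number 2), and it was -0.35 in GM-DC and -0.37 in GM-TNFa-DC (44 of 45 lower in each). In GM-MPP the 24 large-subunit genes were at -0.012 (13 lower, 11 higher) and the 21 small-subunit genes at 0.073 (3 lower, 18 higher). What drew attention was that both dendritic cell groups had a median below 0 and the progenitors one slightly above 0. The difference between these medians was not tested. Gene by gene, the number difference in the dendritic cells against that in GM-MPP called no ribosomal protein gene in limma (lowest adjusted p = 0.108).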

How the results depend on the processing

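No called gene turned its direction. The medians between GM-TNFa-DC and GM-DC lie near 0 and took both signs. With the array number as a replicate block, GM-DC had 5 initiation factor genes lower, 1 higher and 1 ribosomal protein gene lower, and GM-TNFa-DC against GM-MPP had 7, 1 and 2. Genes over all rose to 627 higher and 849 lower in GM-DC, from 340 and 479, and to 850 and 1210 in GM-TNFa-DC, from 504 and 775. Over 45037 single probe sets they were 519 and 732, and 1251 lower in GM-TNFa-DC, and with only the 4 arrays compared GM-TNFa-DC had 303 and 446. The numbers pair nothing by the labels, and the correlation of deviations between same-numbered arrays was 0.105 (GM-MPP and GM-DC), 0.0719 (GM-MPP and GM-TNFa-DC) and 0.806 (GM-DC and GM-TNFa-DC).
The initiation factor genes lower in GM-DC were 1 with all probe sets one by one or with only the 4 arrays compared, 5 without a trend and 4 without dim genes. In GM-TNFa-DC against GM-MPP they were 1 with all probe sets, with the 4 arrays or with a second quantile normalization, 5 with median centring or a robust prior, 7 without a trend and 8 without dim genes; with all probe sets 1 ribosomal protein gene was lower in each comparison with GM-MPP. The initiation factor median was -0.35 (all probe sets), -0.36 (mean of probe sets) and -0.41 (without less specific probe sets) in GM-DC, and -0.37, -0.35, -0.57 (centring), -0.45 (second quantile) and -0.43 (number 1) in GM-TNFa-DC. Against GM-DC it was 0.00097 within number 1 for GM-TNFa-DC.
For the array number, a 2-fold minimum left 2 initiation factor genes lower, 1 higher and 0 ribosomal protein genes (719 higher and 525 lower of all genes, from 1166 and 984); set against GM-MPP 1, 0 and 0 were left, with an initiation factor median of -0.033 and 293 higher and 168 lower of all genes. With the mean of probe sets 4 initiation factor genes were lower (median -0.13), and the median was -0.15 with a second quantile normalization and -0.14 within GM-TNFa-DC. The ribosomal count was 4 without a trend and 15 without dim genes, and its median -0.37 with centring, -0.33 with a second quantile normalization and -0.37 within GM-TNFa-DC.
Leaving out each array gave 0 to 1 initiation factor genes lower in GM-DC and in GM-TNFa-DC, and no ribosomal protein gene. Over all genes it gave 20 to 346 higher and 30 to 371 lower in GM-DC, and 37 to 303 and 51 to 457 in GM-TNFa-DC. The initiation factor median ranged from -0.60 to -0.40 in GM-DC, from -0.60 to -0.34 in GM-TNFa-DC, and from -0.13 to 0.14 between the dendritic cells. The ribosomal median ranged from -0.44 to -0.10, from -0.42 to -0.08 and from -0.20 to 0.18. The number contrast allows no such fit. The cause of these shifts was not tested.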
